A study of Homo sapiens with 3 samples.

Results

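Integrins, the laminins they bind and the other proteins of the basement membrane were examined in the human melanoma line SK-Mel-28, an established culture, after stable expression of a hairpin siRNA against melanotransferrin (MTf, gene symbol MELTF). The group was defined by gene function and held 34 genes: 12 integrin alpha chains, 6 integrin beta chains, 10 laminin chains and 6 other matrix genes. The platform annotation gave 101 of the 54613 non-control probe sets to these genes, 96 of them to a member alone. The other 5, 4 of ITGB6 and 1 of LAMA5, also carried a second gene's name and were not read as the member. Of the 34 genes, 32 had a probe set of their own. ITGB6 had only shared ones, and LAMA3 had no probe set in the annotation and was not measured.

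The labels describe 3 single-colour Affymetrix U133 Plus 2.0 arrays of total RNA: 1 from cells carrying the pSilencer 3.1-H1 neo vector with a scrambled hairpin, and 2 from cells carrying that vector with the MTf hairpin. All cells therefore carried the vector. The siRNA arrays, B1 and B2 in the labels, appear below as siRNA array 1 and siRNA array 2. The sample labels and the series' design text place the hairpin's target at different positions in the MTf transcript, and which is right was not settled here. The labels leave unsaid if the siRNA arrays hold separate clones or separate cultures. Each p-value covers no more than the spread between the 2 siRNA arrays, moderated by that shared over all probe sets, and that spread may be technical. With 1 array against 2 the precision is limited by the number of arrays, and the scrambled array has no replicate.

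Integrins are cell surface receptors made of 1 alpha and 1 beta chain. They hold the cell to its matrix from outside and are linked to actin inside, through adaptor proteins such as talin and kindlin. Laminins are trimers of an alpha, a beta and a gamma chain that polymerise into the sheet of the basement membrane, which nidogens, perlecan and agrin tie to collagen IV and to the cell. In melanoma the beta 3 chain, paired with alpha V, is known as a marker of the step from growth within the epidermis to growth in the dermis.

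The labels were first checked against the targeted gene and against lineage markers. MELTF had 4 probe sets, of which the brightest read 32608 with the scrambled hairpin against 18968 and 18974 with the MTf hairpin (log2 difference -0.78, adjusted p = 0.0699), the next 8284 against 10567 and 11199, and the others 546.4 against 693.7 and 665.7, and 915.2 against 699.7 and 283.6. None passed the threshold used throughout, an adjusted p under 0.05 by limma, so the arrays are named here by their labels. With each array centred on its median the brightest MELTF probe set passed (log2 difference -0.95, adjusted p = 0.0050) and the other MELTF probe sets did not. Under that setting limma called 1528 of the 27306 probe sets tested on the whole array, against 571 as deposited. All 7 measured melanocyte lineage markers were above the highest bacterial control signal on the 3 arrays, with summed signals of 237041, 238328 and 254942. By their brightest probe sets 5 were higher, 0 passed the threshold and 3 were at an unadjusted p under 0.05. The sums cover opposite shifts. TYR read 19988 against 35193 and 37555 (adjusted p = 0.0529). Its probe set 1555505_a_at passed, 10796 against 24678 and 22086 (adjusted p = 0.0383), while 1555504_at read 2419, 2539 and 1979. MITF read 52684 against 42992 and 34223 (adjusted p = 0.236). Of 7 fibroblast markers, 4 were above the highest bacterial control signal on all arrays. The summed signal of the 7 went from 2013 to 5883 and 6133, through lumican (LUM, 598.6 against 4850 and 4841). Of the 4 tested, only LUM was higher, by its brightest probe set (limma adjusted p = 0.0072). The second LUM probe set, 229554_at, was not tested and read 139.8, 171.2 and 138.9. COL1A1 (671.9, 487.9 and 565.1) and THY1 (256.4, 216.8 and 250.2) were lower on both siRNA arrays by their brightest probe sets, and DCN read 256.0, 139.9 and 301.3. PDGFRB (35.2, 23.0 and 28.8) and the brightest COL3A1 probe set (59.1, 45.2 and 60.7) were below that level. Among 6 epithelial, 5 endothelial and 4 leukocyte markers, 2, 1 and 2 were above that level on all arrays, and their summed signals were 1880, 2842 and 2567, then 516.8, 428.0 and 730.0, then 1404, 657.7 and 575.9. The part of these markers in the results was not tested. Ribosomal RNA control probe sets were 4.01 times as bright on siRNA array 1 as on the scrambled array.

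Among the members, the signal passed the test in 2 integrin beta chain genes, ITGB3 and ITGB8, and in opposite directions. Of the 96 probe sets, 62 from 24 genes were bright enough to be tested. Of these 62, 2 were higher in the siRNA cells, both of ITGB3, where 1.19% of all tested probe sets were, and 1, of ITGB8, was lower, where 0.905% of all were. Probe set 215240_at of ITGB3 was bright enough to be tested only through the siRNA arrays, and the call of 204625_s_at was lost under some settings given below, so nothing is read from that count against the background. The same 3 probe sets differed at least 2-fold on both siRNA arrays, against 3.93% of all tested probe sets in the higher and 1.83% in the lower direction. When each gene was read from its brightest probe set, 0 of the 24 members passed limma's threshold, against 2.64% of all genes, and the smallest adjusted p was 0.124. At an unadjusted p under 0.05 there were 9 of the 24 (37.5%), 6 higher and 3 lower, against 22.9% of all genes tested. All 3 calls were lost without the filter on dim probe sets and without the trend of the spread on signal, settings under which limma called 1 probe set on the whole array.

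**Figure D1:**
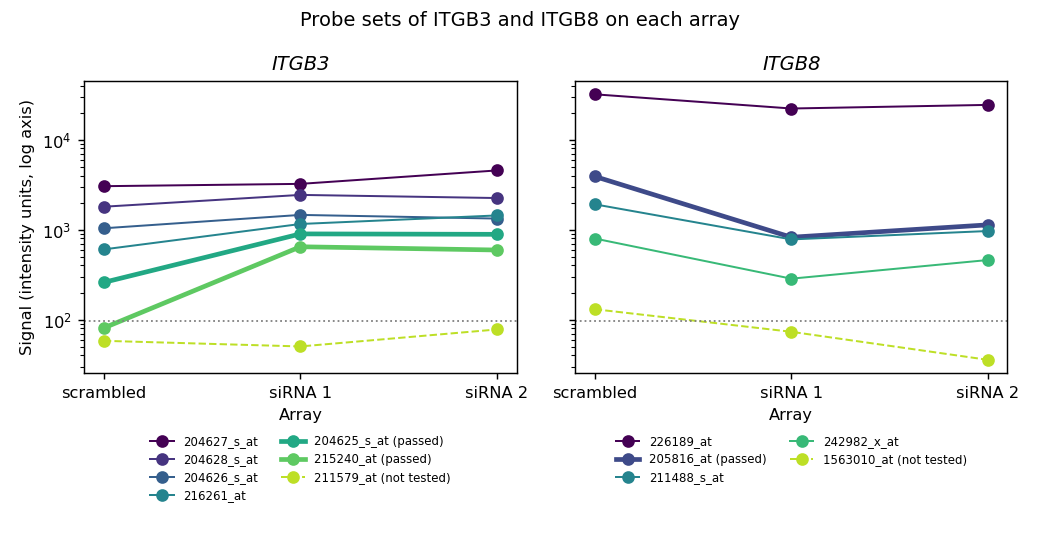
Signal of each ITGB3 probe set (left) and ITGB8 probe set (right) on the scrambled array and the 2 siRNA arrays, in deposited intensity units on a log axis. Thick lines passed the threshold, dashed lines were too dim to be tested, and the dotted line marks the highest bacterial control signal, 97.2; the 6 tested ITGB3 probe sets were higher on both siRNA arrays and the 4 tested ITGB8 probe sets lower.

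ITGB3 encodes the beta 3 chain, which pairs with alpha V to form a receptor for vitronectin, fibronectin and other ligands with an RGD motif. Its 6 tested probe sets were higher on both siRNA arrays than on the scrambled array, but by unequal amounts. Probe set 215240_at read 80.8 with the scrambled hairpin against 645.6 and 594.0 with the MTf hairpin. It was higher by at least 6.37-fold (adjusted p = 0.0290). The scrambled value lay below 97.2, the highest signal of the trp controls, a bacterial gene, so the fold is a lower bound against that level. This probe set passed the filter on dim probe sets through the siRNA arrays. Probe set 204625_s_at read 259.4 against 897.3 and 887.5, a log2 difference of 1.62 ± 0.30 (SE; adjusted p = 0.0482).

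The remaining ITGB3 probe sets did not pass. A middle one, 216261_at, read 603.5 against 1156 and 1439 (log2 difference 1.04 ± 0.29, SE; adjusted p = 0.109). The brightest, 204627_s_at, read 3044 against 3229 and 4555 (log2 difference 0.33 ± 0.27, SE; 95% interval -0.31 to 0.97; adjusted p = 0.554). Probe set 204628_s_at read 1799 against 2434 and 2247, and 204626_s_at read 1036 against 1459 and 1328, log2 differences of 0.37 and 0.41. The dimmest, 211579_at, was not tested and read 58.1, 50.3 and 77.7. The 2 probe sets that passed were thus the dimmest of the tested ones on the scrambled array. The call of 204625_s_at was lost with a pseudocount of 100 (adjusted p = 0.0517) and with quantile normalization (adjusted p = 0.0751), while 215240_at passed under both.

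ITGB8 encodes the beta 8 chain, which also pairs with alpha V and is known for releasing TGF-beta from its latent form. It was lower in the siRNA cells in every tested probe set, again by unequal amounts. Probe set 205816_at fell from 3906 to 823.7 and 1131, which was 3.90-fold lower (-1.96 ± 0.29 on the log2 scale, SE; adjusted p = 0.0286, or 0.0572 with the filter at the 75th percentile). Probe set 211488_s_at read 1914 against 779.0 and 965.6 (log2 difference -1.10 ± 0.28, SE; adjusted p = 0.0921, or 0.0342 with arrays centred on their medians), and 242982_x_at read 797.0 against 285.1 and 459.6 (log2 difference -1.04 ± 0.37, SE; adjusted p = 0.181). The brightest, 226189_at, read 31976 against 22231 and 24387, a smaller difference of -0.46 ± 0.17 (log2, SE; adjusted p = 0.206), which passed only with arrays centred on their medians (adjusted p = 0.0398). A further dim probe set, 1563010_at, read 130.4, 73.2 and 35.7 and was not tested. In a bulk measurement, fewer cells with a transcript and less of it per cell cannot be told apart.

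Alpha V itself (ITGAV), the partner of beta 3, beta 5 and beta 8 and an alternative partner of beta 1, had 1 probe set. It read 9889 with the scrambled hairpin against 13730 and 15071, a log2 difference of 0.54 ± 0.19 (SE; 95% interval 0.09 to 0.99; adjusted p = 0.179). Both siRNA arrays lay above the scrambled array without passing the threshold. ITGB5, whose product joins alpha V in a vitronectin receptor, went the other way in its brightest probe set, 12032 against 6770 and 8243 (log2 difference -0.68 ± 0.22, SE; adjusted p = 0.142). The other ITGB5 probe sets did not share one direction: 214020_x_at read 1553 against 1541 and 2115, 201124_at read 835.0 against 538.6 and 918.5, and 214021_x_at read 170.7 against 368.0 and 226.2. Their log2 differences were 0.21, -0.23 and 0.63, and the arrays overlapped in the first 2.

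ITGB1, the beta chain shared by most integrins that bind laminin, collagen and fibronectin, had 7 probe sets, of which 3 were tested. The brightest read 17042 against 22781 and 24396 (log2 difference 0.47 ± 0.18, SE; adjusted p = 0.203). The other tested ones differed by 0.56 and 0.49 on the log2 scale, and all 3 were higher on both siRNA arrays with none past the threshold. The 4 that were not tested read between 3.9 and 177.8. ITGB4, the partner of alpha 6 in hemidesmosomes, the anchoring junctions of epithelia, was not tested in any of its 5 probe sets, the brightest of which read 142.6, 26.4 and 158.5. The 4 probe sets annotated to ITGB6, an epithelial beta chain, together with a long non-coding RNA read between 8.2 and 148.0.

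**Figure D2:**
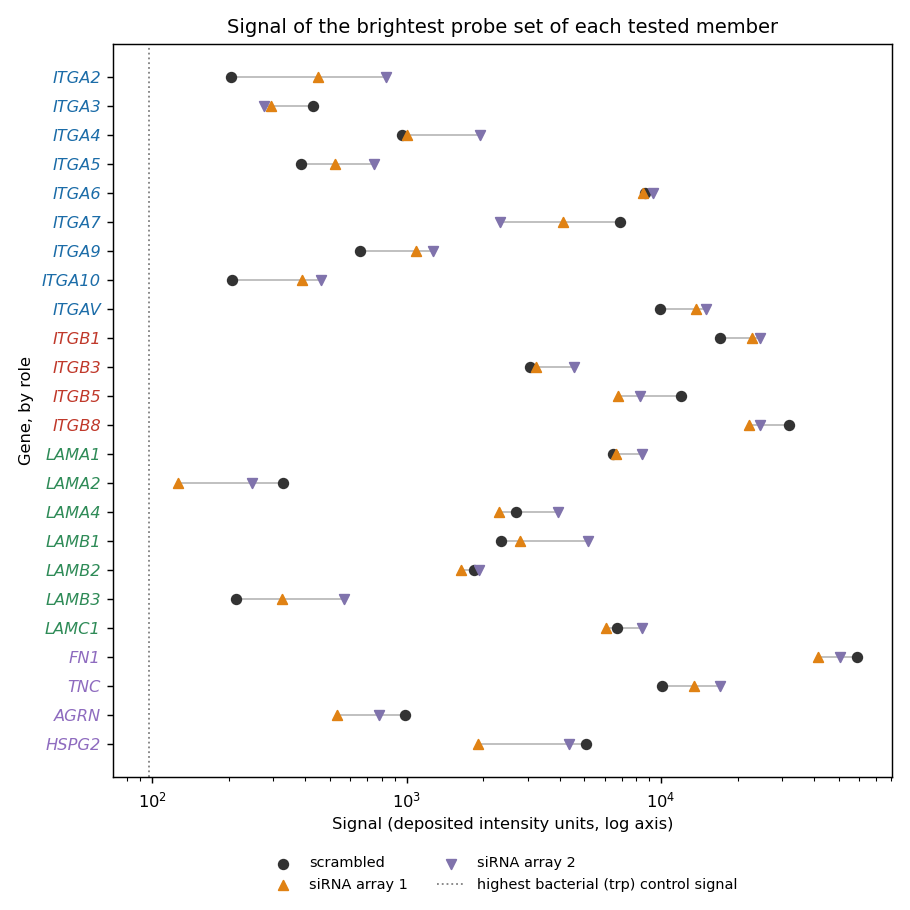
Signal of the brightest probe set of each of the 24 tested members on the 3 arrays, on a log axis in deposited intensity units, with circles for the scrambled array, upward triangles for siRNA array 1 and downward triangles for siRNA array 2. Gene names are ordered by role and coloured as integrin alpha (blue), integrin beta (red), laminin (green) or other matrix (purple). Probe sets differ in how well they bind, so a row is read across arrays and not against other rows; ITGA2 runs from 204.7 to 831.9 and HSPG2 from 1907 to 5074, while the ITGA6 points nearly coincide.

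None of the 17 tested probe sets of the alpha chains passed limma's threshold, against 1.19% higher and 0.905% lower of all tested probe sets. At an unadjusted p under 0.05 there were 5 of the 9 tested genes, against 22.9% of all genes. By their brightest probe set 7 of the 9 were higher and 2 lower in the siRNA cells, with a median log2 difference of 0.54 against 0.097 over all genes. The median was 0.40 on siRNA array 1 and 0.88 on siRNA array 2. With arrays centred on their medians the same median was 0.37, against -0.073 over all genes, and 6 were higher and 3 lower. ITGA2, whose product binds collagen I and laminins with beta 1, read 204.7 against 447.5 and 831.9 (log2 difference 1.39 ± 0.42, SE; adjusted p = 0.130), and its other probe set 181.8 against 369.8 and 631.3 (1.22 ± 0.41). Both siRNA arrays lay above the scrambled array in each, with siRNA array 2 the highest. ITGA10, another collagen-binding chain known from cartilage, read 205.8 against 388.4 and 461.6 (log2 difference 0.90 ± 0.36, SE; adjusted p = 0.226). The collagen-binding chains ITGA1 (118.4, 154.8 and 181.1) and ITGA11 (118.2, 89.0 and 92.5) were too dim to be tested.

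None of the alpha chains that bind fibronectin and related ligands passed. ITGA5, the chain of the classical fibronectin receptor, read 385.5 against 522.7 and 746.7 (log2 difference 0.64 ± 0.34, SE; adjusted p = 0.357). ITGA4, which binds fibronectin and the endothelial adhesion molecule VCAM1, had its brightest probe set at 964.1 against 1000 and 1946, so that siRNA array 1 was close to the scrambled array. Its 4 probe sets had log2 differences of 0.32 to 0.97, with the lowest adjusted p at 0.276. ITGA9, a receptor chain for tenascin and osteopontin, read 654.5 against 1092 and 1269 (log2 difference 0.80 ± 0.28, SE; adjusted p = 0.171), whereas its probe set 1555336_a_at read 269.4 against 274.1 and 248.3. ITGA8, whose product binds nephronectin in the developing kidney, was not tested and read 105.0, 23.8 and 166.1.

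The laminin-binding chains differed among themselves. ITGA6, whose product binds laminins with beta 1 or beta 4, read 8667 against 8499 and 9278, and the scrambled array lay between the siRNA arrays (log2 difference 0.035, 95% interval -0.44 to 0.50; adjusted p = 0.947; -0.13 with arrays centred). A second ITGA6 probe set read 5494 against 4768 and 6956. ITGA7, the laminin receptor chain of muscle, read 6875 against 4102 and 2328, the lowest signal being on siRNA array 2 (log2 difference -1.14 ± 0.34, SE; adjusted p = 0.124). With arrays centred this probe set passed (adjusted p = 0.0388). The second ITGA7 probe set was lower as well, 1111 against 905.5 and 571.1 (adjusted p = 0.385). ITGA3, which pairs with beta 1 to bind laminins of the epidermal basement membrane, read 430.7 against 292.4 and 274.7 (log2 difference -0.53 ± 0.36, SE; adjusted p = 0.458).

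**Figure D3:**
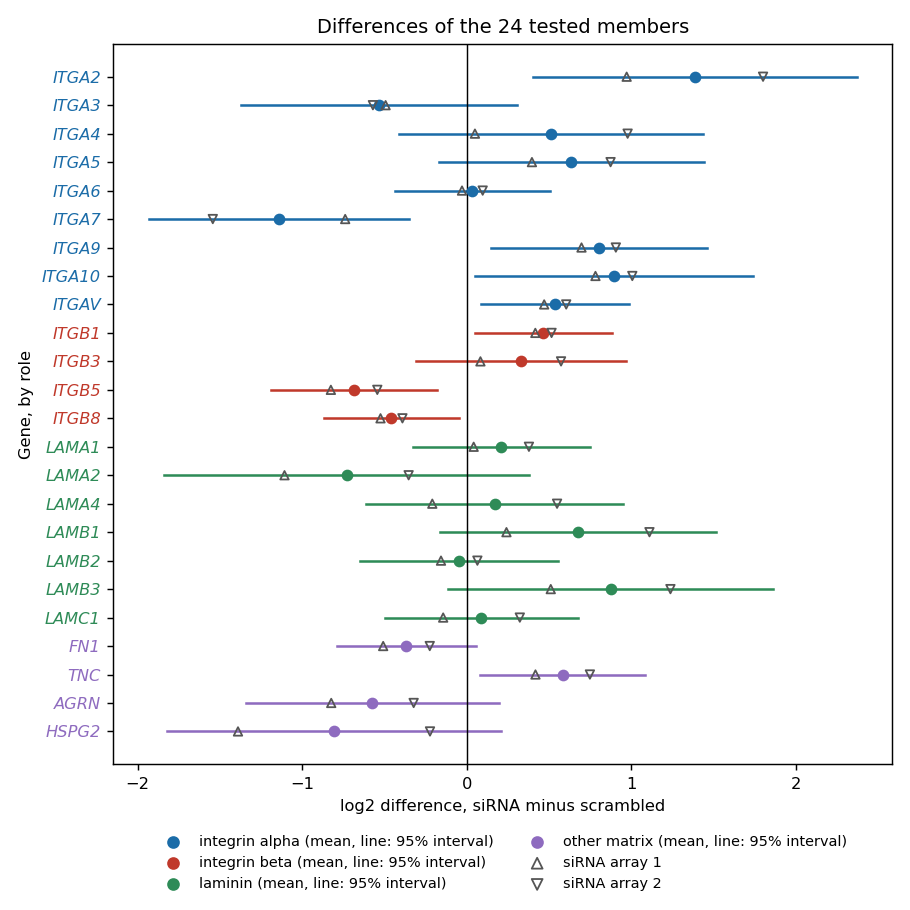
Log2 difference, siRNA minus scrambled, of the brightest probe set of the 24 tested members, on log2(signal + 47.4). Filled points are the mean of the siRNA arrays, lines are 95% intervals from limma, and open triangles show siRNA array 1 (upward) and siRNA array 2 (downward); the interval includes 0 for 15 of the 24.

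No laminin chain passed the test. Of 10 chain genes, 7 were tested in 14 probe sets. By limma 0 of the 14 passed the threshold, against 1.19% higher and 0.905% lower of all tested probe sets. At an unadjusted p under 0.05 there were 0 of the 7 genes, against 22.9% of all genes. With so few genes nothing is read from these counts against the background. By their brightest probe sets 5 were higher and 2 lower, with a median log2 difference of 0.17 that was 0.00099 with arrays centred. On siRNA array 1 alone that median was -0.14 and on siRNA array 2 alone 0.38, so its sign depended on the array. The widest differences were those of LAMB3, LAMA2 and LAMB1, given below. LAMC1, the gamma 1 chain found in most laminins, read 6719 against 6082 and 8419 (log2 difference 0.090, 95% interval -0.50 to 0.68; -0.079 with arrays centred), and its other probe set read 5367 against 5147 and 6441. In both the scrambled array lay between the siRNA arrays. LAMB1, the beta 1 chain, read 2360 against 2800 and 5155 (log2 difference 0.68 ± 0.36, SE; adjusted p = 0.346), and its other probe set 2269 against 2416 and 4506. Its high value was thus on siRNA array 2 alone in both probe sets.

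The alpha chains decide which receptors a laminin binds. LAMA1, the alpha 1 chain of embryonic and some epithelial basement membranes, read 6487 against 6684 and 8450 (log2 difference 0.21 ± 0.23, SE; adjusted p = 0.665), while a dim second probe set read 264.0 against 213.3 and 141.1. LAMA4, the alpha 4 chain of vessel and mesenchymal laminins, read 2687 against 2318 and 3955, and its 5 probe sets had log2 differences of -0.42 to 0.37. LAMA2, the muscle and nerve alpha chain, read 328.1 against 126.9 and 246.7 (log2 difference -0.73 ± 0.47, SE; adjusted p = 0.440). LAMA5 had 1 dim probe set of its own (45.7, 75.4 and 104.6). A second probe set, annotated to LAMA5 and to its antisense RNA, read 693.3 against 373.9 and 316.1 (adjusted p = 0.184), and which of the transcripts it reads was not settled here.

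For the beta and gamma chains of specialised laminins, LAMB2, which replaces beta 1 at synapses and in the kidney filter, read 1837 against 1644 and 1925 (log2 difference -0.045, 95% interval -0.65 to 0.56). LAMB3, part of the laminin that anchors the epidermis, read 212.9 against 323.7 and 567.1 (log2 difference 0.88 ± 0.42, SE; adjusted p = 0.301). LAMC3, a gamma chain of the retina and brain, was not tested and read 147.8, 38.6 and 297.2 in its brighter probe set.

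Of the other matrix genes, 1 was higher and 3 were lower in the siRNA cells, with a median log2 difference of -0.47 over the 4 tested (-0.67 on siRNA array 1 and -0.22 on siRNA array 2). By limma 0 of 14 probe sets passed the threshold, against 1.19% higher and 0.905% lower of all tested probe sets. At an unadjusted p under 0.05 there was 1 of the 4 genes, near the 22.9% of all genes. FN1 encodes fibronectin, the main ligand of alpha 5 beta 1. Its brightest probe set read 58924 against 41441 and 50441 (log2 difference -0.37 ± 0.18, SE; adjusted p = 0.310). With arrays centred the difference was -0.54 (adjusted p = 0.0249). The 7 FN1 probe sets had log2 differences of -0.60 to 0.00090, and in the 5 brightest, some of which may share sequence, both siRNA arrays lay below the scrambled array. TNC encodes tenascin C, a matrix glycoprotein of invasive and wounded tissue and a ligand of alpha 9. It read 10115 against 13536 and 17039 (log2 difference 0.58 ± 0.21, SE; adjusted p = 0.188), and a second probe set read 429.2 against 657.6 and 991.1, both higher on each siRNA array.

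HSPG2 and AGRN encode heparan sulphate proteoglycans of the basement membrane, and neither passed. HSPG2, which encodes perlecan, read 5074 against 1907 and 4341, so that the difference lay mainly on siRNA array 1 (log2 difference -0.81 ± 0.43, SE; adjusted p = 0.354). Its second probe set showed the same order, 358.2 against 121.4 and 276.7. AGRN, which encodes agrin, a proteoglycan that links laminin to the cell surface receptor dystroglycan, read 983.9 against 535.5 and 777.6 (log2 difference -0.57 ± 0.33, SE; adjusted p = 0.381), and all 3 tested probe sets were lower on both siRNA arrays. The nidogens, which bridge laminin and collagen IV, were too dim to be tested, at 111.0, 78.2 and 134.8 for NID1 and 42.4, 44.5 and 82.7 for NID2. All 22 probe sets of the 8 genes without a tested probe set lay between 3.6 and 297.2.

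**Figure D4:**
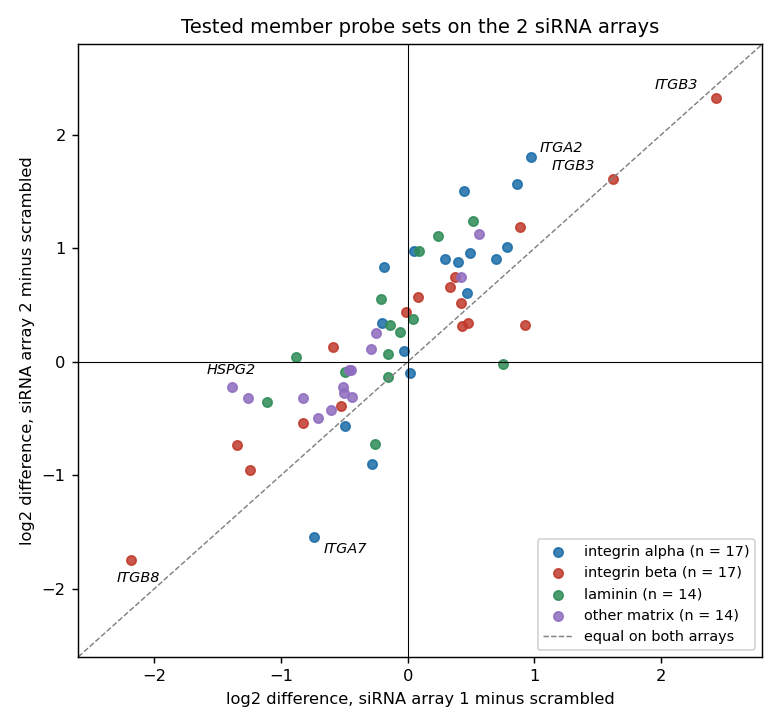
Log2 differences of the 62 tested member probe sets from the scrambled array, siRNA array 1 on the horizontal and siRNA array 2 on the vertical axis, coloured by role, with the dashed line marking equal differences. Both axes use the same scrambled array, so the spread along the line is shared; most points lie above the line, ITGB3 (2 probe sets) lies at the upper right, ITGB8 at the lower left, HSPG2 far above the line and ITGA7 below it.

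The siRNA arrays differed from each other across the members. By the brightest probe set, 22 of 24 members had a higher signal on siRNA array 2 than on siRNA array 1 (91.7%), against 55.8% of all genes, and the median difference was 0.33 on the log2 scale against 0.048. Quantile normalization gave 22 of 24 and a median of 0.34, against 54.5% and 0.036 over all genes. Centred arrays gave 18 of 24 and 0.18, against 37.4% and -0.11 over all genes. The gap reached 0.5 in 9 of the 24 members (37.5%), against 19.5% of all genes. Of the 24, 1 was at least 0.5 lower on siRNA array 2. Another 8 of the 24 were at least 0.5 higher on siRNA array 2, against 13.1% of all genes. HSPG2 was 1.17 higher there, ITGA4 0.93, LAMB1 0.87 and ITGA2 0.83, while ITGA7 differed by -0.80. With 1 array on each side this gap has no test, and the part of the ribosomal RNA signal of siRNA array 1 in it was not tested.

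Other genes of the adhesion pathway were read from fixed lists, by the brightest probe set of each gene. For the integrin adhesion complex, a list that holds signalling proteins as well as links to actin, 25 of 34 listed genes were tested. Of these 16 were higher (median log2 difference 0.10). By limma 0 passed the threshold higher and 1 lower, and 8 were at an unadjusted p under 0.05. Over all 12386 genes tested 7123 were higher, 2.64% passed, 22.9% were at an unadjusted p under 0.05 and the median was 0.097. These values are also the background for the lists that follow. The gene that passed was NEDD9, a scaffold protein phosphorylated downstream of focal adhesion kinase and known for its role in melanoma metastasis. It fell from 7930 to 1530 and 1511 (-2.35 ± 0.23 on the log2 scale, SE; adjusted p = 0.0169), and probe sets 202150_s_at (-1.90) and 1569020_at (-2.28) fell as well, whereas the dim 242861_at differed by 0.16 and the mean of all NEDD9 probe sets by -1.06 (adjusted p = 0.102).

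Among 21 listed matrix receptors that are not integrins, 19 were tested and 13 of these were higher (median 0.11). By limma 1 passed the threshold higher and 0 lower, and 5 were at an unadjusted p under 0.05. SDC2, which encodes syndecan 2, a heparan sulphate proteoglycan that acts with integrins, rose from 437.7 to 2374 and 2745 (2.42 ± 0.26 on the log2 scale, SE; adjusted p = 0.0183). Its other probe sets rose too, from 239.5 to 2116 and 2704 and from 182.1 to 802.6 and 946.5, so that the 3 moved together. Of 37 other basement membrane and matrix genes 14 were tested and 9 of these were higher (median 0.062). Past limma's threshold 1 was higher and 0 lower, and 6 were at an unadjusted p under 0.05. FBLN5, which encodes fibulin 5, an elastic fibre protein with an RGD motif, rose from 394.2 to 1501 and 1365 (1.74 ± 0.28 on the log2 scale, SE; adjusted p = 0.0345; 0.0567 with quantile normalization). Of 8 leukocyte and platelet integrin genes 2 were tested, ITGAE (6699, 6392 and 5949) and ITGAM (261.5, 235.3 and 205.4), and 0 passed limma's threshold or an unadjusted p of 0.05. The leukocyte beta chains ITGB2 (138.3, 99.6 and 105.4) and ITGB7 (26.8, 20.2 and 12.5) were not tested. The 3 pathway calls were lost without the trend, without the filter and with a stricter filter at the 75th percentile, and centred arrays gave 9.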

How the data were processed

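The authors deposited linear intensities, 1 per probe set and array, made with GCOS 1.3 per the submitters' processing notes. The mean after trimming 2% at each end was close to 1000 on each array (1000.14, 1000.12 and 1000.13). Further settings and the genome build were not given in the sources used here. Coordinates are left out. Control probe sets (62) were set aside.

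Tests used log2(signal + 47.4), the 25th percentile, a scale that understates changes of dim probe sets. Probe sets above the median mean log2 value (7.74) were tested (27306, from 12386 genes by brightest probe set) with limma 3.58.1 in R 4.3.3, lmFit and eBayes with trend, two-sided, Benjamini-Hochberg adjustment over all of them. The 1 residual degree of freedom comes from the siRNA arrays, to which moderation added 6.36. The lone scrambled array is assumed to vary like them. Alternatives were other pseudocounts, no filter or a stricter one, quantile normalization, centred arrays, no trend, robust moderation, the mean of all probe sets of a gene and each siRNA array alone. The script was tested on simulated data. "At least" folds use geometric means with signals raised to at least 97.2. The platform annotation named 1 gene for 41091 probe sets, several for 1801 and none for 11721.

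The members and lists were chosen with earlier results of these data known. The rule described at length members with a probe set past the threshold or at least 2-fold on both siRNA arrays, the brightest of each role group and, from other lists, genes past the threshold. The rule gave the other members by ranges and counts only. Here they are given by their signals, many with a log2 difference, SE and adjusted p, which departs from the rule. The markers and further list genes printed were chosen after their values were seen.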

Additional observations from a re-analysis of the deposited data

Results flagged for a closer look

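Ribosomal RNA control probe sets, which enter none of the comparisons, had a median signal on siRNA array 1 that was 4.01 times that on the scrambled array, and on siRNA array 2 it was 0.963 times.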

How the results depend on the processing

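The count of ITGB3 probe sets past the threshold went from 2 to 1 with a pseudocount of 100 and with quantile normalization, and to 0 without the trend, without the filter and with the stricter filter at the 75th percentile, which left both probe sets untested. The count of ITGB8 probe sets went from 1 to 0 under those last 3 settings. With arrays centred, 6 member probe sets were lower and past the threshold, and 3 members passed by their brightest probe set in place of 0. Centring raised the limma calls over the whole array as well, from 571 to 1528 of 27306 tested probe sets. The gains with arrays centred were thus not confined to the members. Counting member probe sets 2-fold apart or more on each siRNA array, 0 were higher with the filter at the 75th percentile, and 2 were lower with quantile normalization and with arrays centred. On a single siRNA array that count ranged from 2 to 10 higher and from 2 to 6 lower, and those values have no test. The median over all genes was 0.040 with the filter at the 75th percentile, 0.021 with quantile normalization and -0.073 with arrays centred. Listed pathway genes past the threshold went from 3 to 0 without the trend, without the filter and with the stricter filter, and to 9 with arrays centred. With arrays centred ITGA6 was at -0.13 and LAMC1 at -0.079. With the mean of all probe sets LAMA1 was at -0.14 and LAMA4 at -0.064. The cause of these shifts was not tested. No paired analysis was possible because there was only 1 scrambled array, so the groups share fewer than 2 replicate numbers.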
